A study of Mus musculus with 8 samples.

Results

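The TNF superfamily ligands and receptors were described in brain lysates of mice labelled TNF-/- and TNF+/+, after the genotype at the gene for tumour necrosis factor (TNF), the founding cytokine of the family. Members were the genes whose symbol starts with Tnfsf or Tnfrsf, together with Tnf, Lta, Ltb, Ltbr, Cd40, Cd40lg, Fas, Fasl, Cd27, Cd70, Eda, Edar and Eda2r, provided that a probe set paired with that symbol alone. This gave 42 of the 19938 genes with such a probe set, 16 ligands and 26 receptors, each read by 1 probe set. Among the receptors, 6 carry a death domain, 16 signal through TNF receptor-associated factors (TRAF) and 4 are decoy or soluble receptors.

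Ligands of this family are trimers, most of them made as membrane proteins from which some are shed, and they bring receptor chains together on the target cell. Receptors with a death domain can engage adaptors that lead to caspase activation or to NF-kB, whereas the TRAF-binding receptors act mainly through NF-kB and stress kinases. In brain, TNF comes mostly from microglia and acts on neurons, glia and vessels through the receptors TNFR1 and TNFR2, which the genes Tnfrsf1a and Tnfrsf1b encode.

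The arrays came from adult male mice, 2 to 4 months old. One group of 4 biological replicates is labelled TNF-/-, with neither the allele nor the strain given in the labels used here, and the other group of 4 is labelled TNF+/+ with the genotype C57BL/6. Total RNA was prepared with Trizol from frozen brain, and no brain region is named. One Affymetrix Mouse Gene 1.0 ST array was run per replicate, and values are log2 signals per probe set, so that a difference of 1 is a 2-fold change. Differences below are the mean under the label TNF-/- minus that under TNF+/+. Directions follow the labels, because the signal of the targeted gene went against its label.

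Array medians ran from 5.03 to 5.11, and correlations between arrays across probe sets from 0.9863 to 0.9934. TNF+/+ arrays 3 and 4 stood apart on the first principal component, which held 24.0% of the variance, and TNF+/+ array 1 had a mean of 7.59 for 3 markers of cerebellar granule cells, against 4.74 to 5.02 in the other arrays. Markers of neurons, astrocytes and oligodendrocytes were present in every array, with list means of at least 10.8, 9.75 and 9.68. The number of arrays limits the precision of each comparison.

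Signal of Tnf was higher in the arrays labelled TNF-/-. It read 5.67, 5.87, 5.92 and 6.21 in TNF-/- arrays 1 to 4. In TNF+/+ arrays 1 to 4 it read 4.48, 4.93, 4.24 and 4.47. The groups did not overlap, and a gap of 0.74 lay between the lowest value of one and the highest of the other. The difference was 1.39 ± 0.16 (SE; 95% interval 1.03 to 1.75; limma, adjusted p = 0.0278), or 2.62-fold, with an exact two-sided permutation p of 0.0286, the smallest that 4 arrays against 4 can give. Among the 35556 probe sets it had the 4th largest positive difference, and SAM, the test that the study's design names, also called Tnf.

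The adjusted limma p passed in 1 of the 8 cases with a single array left out (TNF+/+ array 2, with 1.52 and an adjusted p of 0.0321). In the other 7 cases the difference lay between 1.29 and 1.47. Leaving out TNF-/- array 1, 2, 3 or 4 gave an adjusted limma p of 0.0562, 0.0857, 0.114 or 0.0734, and leaving out TNF+/+ array 1, 3 or 4 gave 0.101, 0.0966 or 0.0968. It was 0.129 with the replicate number as a block. A probe set outside the part of the gene that was removed checks nothing about the deletion, and the position of these probes is not stated in the labels or the annotation. In lysates, a change in the number of cells of a type and a change in RNA per cell cannot be told apart.

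Tnf lies between the genes of 2 other ligands on mouse chromosome 17, so that a comparison with its neighbours was possible. Lymphotoxin alpha, from Lta, binds the same receptors as TNF, and lymphotoxin beta, from Ltb, joins it in a complex that binds the product of Ltbr. In RefSeq's GRCm38.p6 table the start of Tnf is 3344 bases from that of Lta and 7500 bases from that of Ltb. The 250 bases before each start are printed because the 3 genes share a locus and only Tnf was called. Capitals mark matches, on either strand, to TATAAA or to the kappa-B consensus motif that NF-kB binds. Ltb stands at chr17:35194257-35194506 on the plus strand, Tnf at chr17:35202008-35202257 and Lta at chr17:35205352-35205601, both on the minus strand:
Ltb: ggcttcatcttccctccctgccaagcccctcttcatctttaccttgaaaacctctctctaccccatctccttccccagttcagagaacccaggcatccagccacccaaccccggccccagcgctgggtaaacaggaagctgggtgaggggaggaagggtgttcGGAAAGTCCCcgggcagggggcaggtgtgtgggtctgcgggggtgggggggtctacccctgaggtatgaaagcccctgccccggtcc
Tnf: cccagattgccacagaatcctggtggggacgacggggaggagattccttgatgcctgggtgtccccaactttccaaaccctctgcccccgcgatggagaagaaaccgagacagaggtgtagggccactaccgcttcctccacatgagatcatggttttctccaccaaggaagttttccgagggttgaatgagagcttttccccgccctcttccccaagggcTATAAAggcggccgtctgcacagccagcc
Lta: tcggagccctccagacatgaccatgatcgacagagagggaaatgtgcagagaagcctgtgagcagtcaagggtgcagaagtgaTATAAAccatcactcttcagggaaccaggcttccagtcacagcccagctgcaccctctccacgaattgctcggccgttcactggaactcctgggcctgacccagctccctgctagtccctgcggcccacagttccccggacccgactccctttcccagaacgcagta
The TATAAA of Tnf begins 29 bases before the start, that of Lta 167 bases before it, and the kappa-B match of Ltb 87 bases before it. Of the 42 members, 33 have a window in the table. The kappa-B motif is found in the windows of 3 of them (9.09%), Ltb, Tnfrsf8 and Tnfrsf9, against 4.46% of the 27025 genes in the table. TATAAA is found in 7 of the 33, against 14.3% of all genes. These matches describe letters only, and none of the printed windows holds both motifs. Bases further upstream were not searched, so sites there are not covered.

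Neither neighbour differed by more than the spread between its replicates. Lta read 3.89, 3.94, 3.82 and 3.89 in TNF-/- arrays 1 to 4, and 3.77, 4.00, 3.89 and 3.87 in TNF+/+ arrays 1 to 4. The TNF+/+ arrays held both its lowest and its highest value. Its difference was 0.00 ± 0.06 (SE; 95% interval -0.14 to 0.15; limma, adjusted p = 0.988). Ltb read 3.59, 3.75, 3.67 and 3.82 under TNF-/- and 3.74, 3.75, 3.57 and 3.56 under TNF+/+. The values of Ltb overlapped, with a difference of 0.06 ± 0.07 (SE; 95% interval -0.11 to 0.22; limma, adjusted p = 0.805). Both signals lay under the 25th percentile of all probe set means, 4.00.

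**Figure D1:**
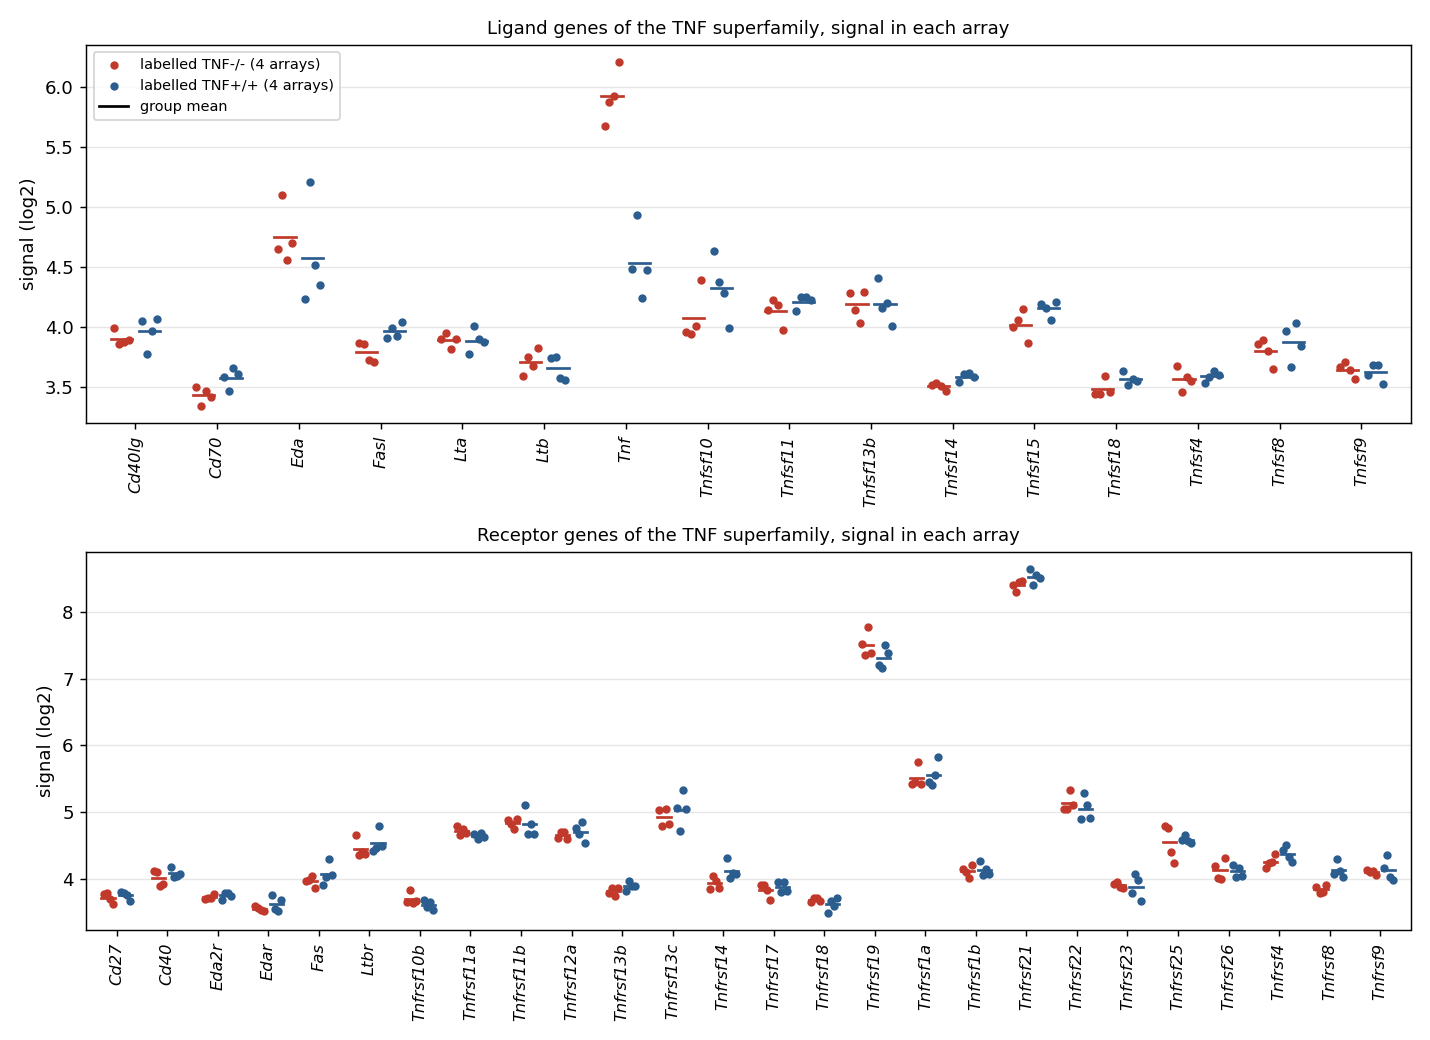
Log2 signal of each ligand gene (upper panel) and receptor gene (lower panel) in the 4 arrays labelled TNF-/- (red) and the 4 labelled TNF+/+ (blue), with arrays 1 to 4 from left to right and a line at each group mean. Tnf separates the groups, 5.67 to 6.21 against 4.24 to 4.93, and most other members overlap; signals of different probe sets cannot be ranked against each other.

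Among the other 15 ligands none passed over all probe sets by limma or by SAM, and 2 (13.3%) had an unadjusted limma p under 0.05, against 10.8% of all probe sets. These 2 were Fasl and Cd70, both lower in the arrays labelled TNF-/-. Fasl, whose product kills cells through FAS, read 3.87, 3.85, 3.72 and 3.71 under TNF-/- and 3.90, 3.99, 3.92 and 4.04 under TNF+/+. Its groups did not overlap, as was the case for 6.63% of all probe sets, and the difference was -0.18 ± 0.06 (SE; limma, adjusted p = 0.383). Cd70, which encodes the ligand of CD27 on lymphocytes, read 3.50, 3.34, 3.46 and 3.41 under TNF-/- and 3.58, 3.46, 3.66 and 3.61 under TNF+/+. The lowest TNF+/+ array of Cd70 lay below the highest TNF-/- array, and the difference was -0.15 ± 0.06 (SE; limma, adjusted p = 0.457).

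Tnfsf10 and Eda varied most among arrays after Tnf, over 0.69 and 0.97 on the log2 scale, against 1.97 for Tnf. Tnfsf10 encodes TRAIL, an apoptosis-inducing ligand, and read 3.95, 3.94, 4.01 and 4.39 under TNF-/- and 4.63, 4.37, 4.28 and 3.99 under TNF+/+. TNF-/- array 4 was the high one of its group and TNF+/+ array 4 the low one of its own, so the groups overlapped (difference -0.24 ± 0.15, SE; limma, adjusted p = 0.577). Eda encodes ectodysplasin, a ligand known from hair and tooth development, and read 4.65, 5.09, 4.55 and 4.70 under TNF-/- and 4.23, 5.20, 4.51 and 4.35 under TNF+/+. Array 2 was the highest in both groups, and the difference was 0.18 ± 0.21 (SE; limma, adjusted p = 0.781). The 95% interval of Eda, -0.31 to 0.66, was the widest of the family.

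The remaining ligands ran from -0.14 to 0.02, and none of them had an unadjusted limma p under 0.05. Tnfsf15, which encodes TL1A, differed by -0.14, Tnfsf18, the GITR ligand gene, by -0.08, Tnfsf14, which encodes LIGHT, by -0.08, Tnfsf11, which encodes RANK ligand, by -0.08 and Tnfsf8, the CD30 ligand gene, by -0.08. Cd40lg, the CD40 ligand gene of activated T cells, differed by -0.06, the OX40 ligand gene Tnfsf4 by -0.02, Tnfsf13b, which encodes the B cell survival factor BAFF, by -0.01 and the 4-1BB ligand gene Tnfsf9 by 0.02. Tnfsf14 did not overlap between groups, as was the case for 6.63% of all probe sets. It read 3.51, 3.53, 3.50 and 3.46 under TNF-/- and 3.54, 3.61, 3.61 and 3.58 under TNF+/+. Its limma p was 0.12 before adjustment and 0.565 after it.

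Receptors of TNF itself showed no difference past the spread between replicates. Tnfrsf1a, the death-domain receptor found on most cells, read 5.42, 5.45, 5.75 and 5.43 under TNF-/- and 5.45, 5.41, 5.56 and 5.82 under TNF+/+. TNF-/- array 3 and TNF+/+ array 4 were high, and the other values ran from 5.41 to 5.56. The difference was -0.05 ± 0.11 (SE; 95% interval -0.30 to 0.21; limma, adjusted p = 0.892), and its sign turned without TNF+/+ array 4 (0.038). Tnfrsf1b, which in brain is mainly a microglial gene and whose product binds TRAF2, read 4.14, 4.10, 4.02 and 4.21 under TNF-/- and 4.26, 4.06, 4.15 and 4.08 under TNF+/+. These values overlapped throughout, with a difference of -0.02 ± 0.07 (SE; 95% interval -0.17 to 0.14; limma, adjusted p = 0.935), or 0.021 after quantile normalization.

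Of the 6 death-domain receptors, 5 had a lower mean in the arrays labelled TNF-/- (83.3%). Of all probe sets 54.8% were lower, and of those under the median signal 68.6%. None of the 6 was called by limma or SAM or had an unadjusted limma p under 0.05, against 10.8% of all probe sets. Tnfrsf21 encodes death receptor 6, studied in axon pruning and myelination. It read 8.41, 8.30, 8.45 and 8.47 under TNF-/- and 8.65, 8.40, 8.56 and 8.51 under TNF+/+. The groups overlapped through TNF+/+ array 2, and the difference was -0.12 ± 0.07 (SE; 95% interval -0.28 to 0.04; limma, adjusted p = 0.554). Tnfrsf25, which encodes the TL1A receptor DR3, read 4.79, 4.75, 4.40 and 4.24 under TNF-/- and 4.58, 4.65, 4.57 and 4.53 under TNF+/+. Its spread was larger under TNF-/- (SD 0.27, n = 4) than under TNF+/+ (SD 0.05, n = 4), a description that was not tested, with TNF-/- arrays 1 and 2 above and arrays 3 and 4 below all of the TNF+/+ arrays. Fas differed by -0.11, Edar, the ectodysplasin receptor gene, by -0.07 and Tnfrsf10b, the mouse TRAIL receptor gene, by 0.09.

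Receptors that bind TRAF held 2 genes (12.5%, against 10.8% of all probe sets) with an unadjusted limma p under 0.05, both lower under the label TNF-/-, and none of the 16 was called by limma or SAM. Tnfrsf8 encodes CD30, a receptor of activated lymphocytes. It read 3.87, 3.79, 3.80 and 3.91 under TNF-/- and 4.07, 4.30, 4.12 and 4.03 under TNF+/+. The groups did not overlap, as was the case for 6.63% of all probe sets. Its difference of -0.29 ± 0.07 (SE, limma, unadjusted p = 0.00293, adjusted p = 0.249) was the second largest in size of the family. It stood 418th of the 35556 probe sets by p. Tnfrsf14 encodes HVEM, a receptor for LIGHT, and read 3.85, 4.03, 3.97 and 3.87 under TNF-/- and 4.30, 4.01, 4.09 and 4.07 under TNF+/+. TNF+/+ array 2 overlapped with the TNF-/- arrays, and the difference was -0.19 ± 0.08 (SE; limma, adjusted p = 0.44).

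Tnfrsf19 had the largest positive difference of the receptors. It encodes TROY, an orphan receptor expressed in astrocytes and neural progenitors that can take part in Nogo receptor complexes. It read 7.53, 7.36, 7.78 and 7.39 under TNF-/- and 7.20, 7.17, 7.51 and 7.39 under TNF+/+. Array 3 was the highest of each group, and the groups overlapped (difference 0.20 ± 0.11, SE; 95% interval -0.07 to 0.46; limma, adjusted p = 0.571). The mean of 4 astrocyte markers was also highest in array 3 of the TNF-/- group (10.07), but in the TNF+/+ group array 4 was highest (10.07) and array 3 read 9.93. The marker mean ran from 9.75 to 10.07 under TNF-/- and from 9.88 to 10.07 under TNF+/+. Of the 4 markers, 3 were lower under TNF-/-, where 40.9% of probe sets at or above the median signal were lower. These were Gfap (-0.34 ± 0.12, SE, limma, adjusted p = 0.381), Aldoc (-0.06 ± 0.07) and Aqp4 (-0.05 ± 0.09). Slc1a3 was higher (0.16 ± 0.09). The part of astrocyte content in the Tnfrsf19 values was not tested.

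Other receptors of this group differed little. Tnfrsf13c, which encodes the BAFF receptor of B cells, read 5.03, 4.79, 5.05 and 4.82 under TNF-/- and 5.07, 4.72, 5.32 and 5.04 under TNF+/+, with TNF+/+ array 3 highest (difference -0.11 ± 0.13, SE; limma, adjusted p = 0.761). Tnfrsf11a, which encodes RANK, read 4.79, 4.65, 4.75 and 4.68 under TNF-/- and 4.68, 4.60, 4.69 and 4.62 under TNF+/+. These values overlapped within a range of 0.18, with a difference of 0.07 ± 0.05 (SE; limma, adjusted p = 0.652). The other 11 ran from -0.13 for the OX40 gene Tnfrsf4 to 0.07 for the GITR gene Tnfrsf18. Between these stood Ltbr (-0.09), Tnfrsf13b (-0.08), which encodes TACI, Cd40 (-0.07), an activation receptor of B cells and microglia, Tnfrsf12a (-0.05), which encodes the TWEAK receptor Fn14, Tnfrsf17 (-0.05), which encodes BCMA, Cd27 (-0.03), the 4-1BB gene Tnfrsf9 (-0.03), the ectodysplasin A2 receptor gene Eda2r (-0.03) and Tnfrsf1b.

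All 4 decoy or soluble receptors had means slightly higher in the arrays labelled TNF-/-, by 0.016 to 0.081, each less than its SE. Of all probe sets 54.8% were lower there, and of those under the median signal 68.6%. None of the 4 was called by limma or SAM or had an unadjusted limma p under 0.05, against 10.8% of all probe sets. Tnfrsf11b encodes osteoprotegerin, a soluble receptor that captures RANK ligand. It read 4.88, 4.82, 4.75 and 4.89 under TNF-/- and 5.11, 4.67, 4.83 and 4.67 under TNF+/+, so that TNF+/+ array 1 was the highest of all 8. Tnfrsf22, a decoy receptor gene for TRAIL, read 5.05, 5.05, 5.33 and 5.11 under TNF-/- and 4.89, 5.29, 5.11 and 4.92 under TNF+/+. Tnfrsf26 read 4.19, 4.00, 3.99 and 4.30 under TNF-/- and 4.21, 4.02, 4.16 and 4.04 under TNF+/+. Groups overlapped for all 3, as they did for the TRAIL decoy receptor gene Tnfrsf23 (0.03 ± 0.09, SE). The signs of Tnfrsf11b and Tnfrsf26 turned under median centring of the arrays (-0.0020 and -0.0024).

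**Figure D2:**
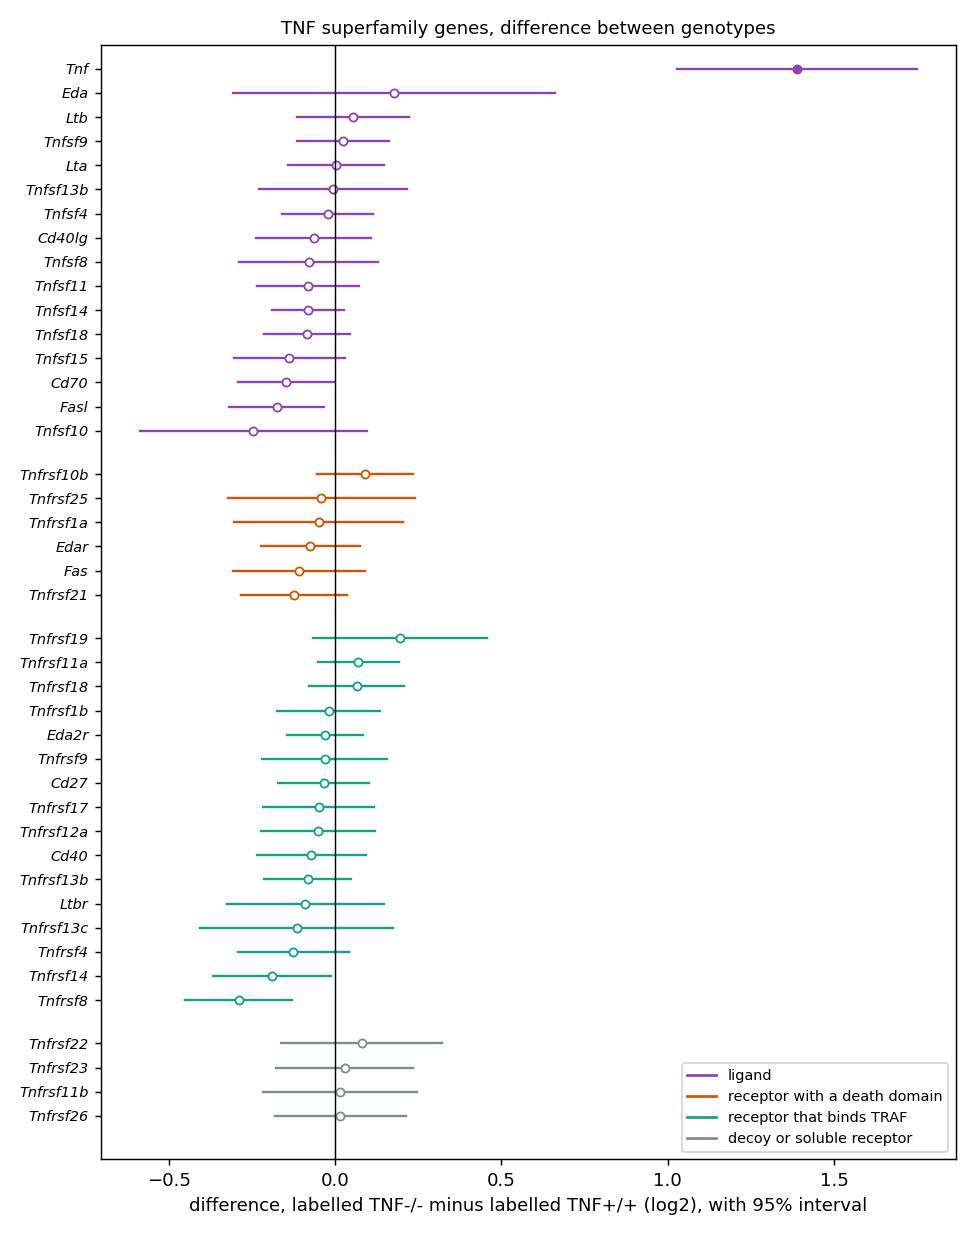
Log2 difference of each member, TNF-/- minus TNF+/+ as labelled, with limma's 95% interval, grouped by role. Tnf (filled point, adjusted p = 0.0278) stands at 1.39, and the other 41 members (open points, adjusted p of 0.05 or more) lie between -0.29 and 0.20.

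Differences of ligands and their receptors stand side by side here, and the pairs were not tested. Under TNF-/- 54.8% of all probe sets were lower, and 68.6% of those under the median signal. A shared or opposite sign is therefore no result about a pair. For the CD30 pair they were -0.29 for the receptor gene Tnfrsf8 and -0.08 for the ligand gene Tnfsf8, for the FAS pair -0.11 for Fas and -0.18 for Fasl, and for the CD27 pair -0.03 for Cd27 and -0.15 for Cd70. For RANK ligand (Tnfsf11, -0.08) the signalling receptor gene Tnfrsf11a differed by 0.07 and the soluble one, Tnfrsf11b, by 0.02. Tnf (1.39) was opposite in sign to its receptor genes Tnfrsf1a (-0.05 ± 0.11, SE) and Tnfrsf1b (-0.02 ± 0.07). The sign of Tnfrsf1a turned without TNF+/+ array 4 (0.038), and that of Tnfrsf1b after quantile normalization (0.021). Further pairs of opposite sign were TRAIL (Tnfsf10 -0.24, Tnfrsf10b 0.09) and ectodysplasin (Eda 0.18, Edar -0.07, Eda2r -0.03). GITR (Tnfsf18 -0.08, Tnfrsf18 0.07) and 4-1BB (Tnfsf9 0.02, Tnfrsf9 -0.03) were also of opposite sign. Both genes were lower under TNF-/- for CD40 (Cd40lg -0.06, Cd40 -0.07), OX40 (Tnfsf4 -0.02, Tnfrsf4 -0.13), TL1A (Tnfsf15 -0.14, Tnfrsf25 -0.04) and LIGHT (Tnfsf14 -0.08, with Tnfrsf14 at -0.19 and Ltbr at -0.09). For BAFF (Tnfsf13b, -0.01) the receptor genes Tnfrsf13b, Tnfrsf13c and Tnfrsf17 differed by -0.08, -0.11 and -0.05. Of these genes only Tnf was called by limma or SAM. Among the others, Tnfrsf8, Fasl, Cd70 and Tnfrsf14 had an unadjusted limma p under 0.05.

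Across the family, limma called 1 of 42 members, Tnf, against 0.0816% of all probe sets, and SAM called the same 1 against 0.149%. At an unadjusted limma p under 0.05 there were 5 members (11.9%) against 10.8% of all probe sets, and the groups did not overlap for 4 members (9.52%) against 6.63%. Beyond Tnf these shares lie near the background, so they are no result about the family: 4 of the other 41 (9.76%) had an unadjusted p under 0.05, all lower in the arrays labelled TNF-/-, where 4.9% of probe sets were lower and 5.92% higher. For 39 of those 41 members the 95% interval lay within 0.5 on the log2 scale, or 1.41-fold, in either direction, and for 24 within 0.25, or 1.19-fold. Such an interval bounds the difference in signal, and near background it does not bound the difference in RNA.

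More members were lower than higher. Under the label TNF-/- 29 of 42 had the lower mean (69.0%), with a median difference of -0.05, where 54.8% of all 35556 probe sets were lower with a median of -0.01. Signals of the family were mostly low: 37 of 42 members had a mean under the median of all probe sets, 5.08, and 19 under the 25th percentile. Among the 17778 probe sets under that median, 68.6% were lower under TNF-/- (median difference -0.04), and of the 37 members there 27 were lower (73.0%), with a median of -0.05. After quantile normalization, which gives all arrays the same distribution, 23 of 42 members were lower, with a median of -0.02, and 1 member other than Tnf had an unadjusted limma p under 0.05.

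**Figure D3:**
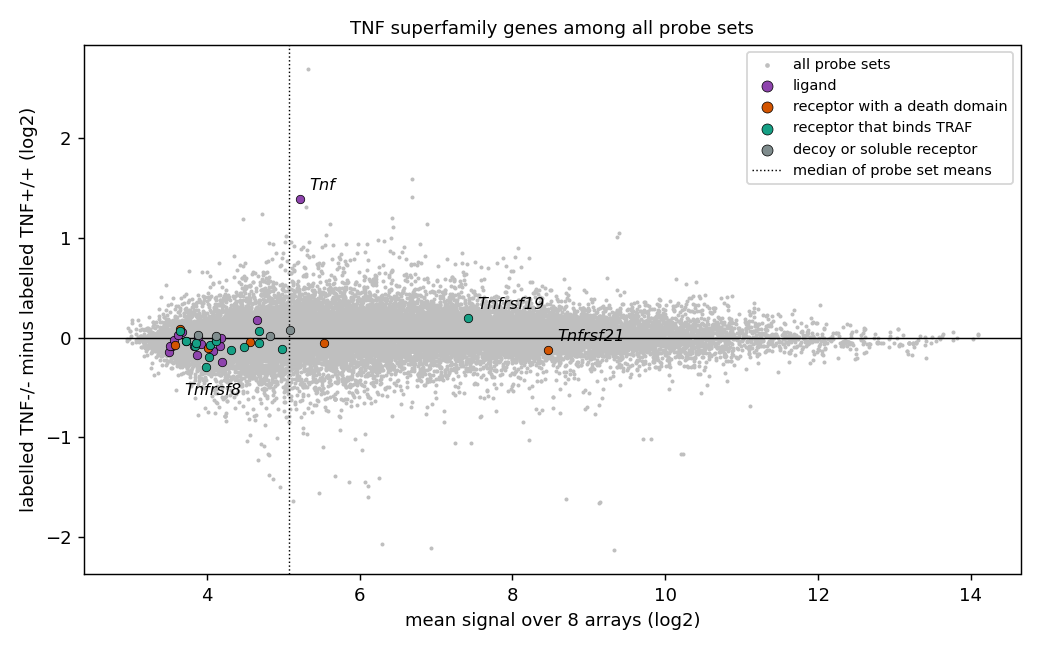
Mean log2 signal over the 8 arrays (horizontal axis) against the log2 difference, TNF-/- minus TNF+/+ as labelled (vertical axis), for 35556 probe sets (grey) and the 42 members (coloured by role), with the median of probe set means, 5.08, as a dotted line. Most members lie left of that line and inside the grey cloud, with Tnf at 1.39 above it.

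Further genes of TNF signalling were taken from a list. Of 42 measured list genes limma called none and SAM none, and 6 had an unadjusted limma p under 0.05 (14.3%, against 10.8% of probe sets), 5 higher and 1 lower under the label TNF-/-. Of all probe sets, 5.92% were higher and 4.9% lower at that p. The list's median difference was 0.01, against -0.01 over all probe sets, and its signals ran from 3.59 to 9.74. Probe sets at or above the median signal had a median difference of 0.03, and those under it -0.04. The 5 higher were Tab3 (0.27 ± 0.06, SE) and Map3k7 (0.22 ± 0.08), which encode a subunit and the kinase of the TAK1 complex, Relt (0.21 ± 0.07) and Ngfr (0.16 ± 0.07), which are family receptors under other symbols, and Adam17 (0.20 ± 0.07), which encodes the protease that sheds TNF. Nfkbia, which encodes the NF-kB inhibitor IkBa, was the lower one (-0.39 ± 0.17, SE; limma, adjusted p = 0.45). The adjusted limma p of the 5 higher genes ran from 0.247 to 0.459. Tnfaip3, the NF-kB feedback gene that encodes A20, differed by 0.01 ± 0.06, and the adaptor gene Tradd by 0.03 ± 0.13.

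Markers of cells that make or carry these proteins were read beside the members. Limma and SAM called none of 40 measured markers, and 8 (20%, against 10.8% of all probe sets) had an unadjusted limma p under 0.05, of which 6 were lower and 2 higher under TNF-/-. The mean of 6 microglial markers ran from 6.20 to 6.41 in the arrays labelled TNF-/- and from 6.33 to 6.51 in those labelled TNF+/+. Under TNF-/- 5 of the 6 were lower and P2ry12 was higher (0.17 ± 0.09, SE). Lower there were 54.8% of all probe sets, and 40.9% of those at or above the median signal. Of the 6 markers, 2 had an unadjusted limma p under 0.05, both lower. These were C1qa (-0.30 ± 0.13, SE, limma, adjusted p = 0.461) and Aif1 (-0.14 ± 0.06, adjusted p = 0.445). The part of microglial content in the Tnf signal was not tested. T cell markers, 4 in number, had means from 3.83 to 3.89 and from 3.85 to 3.92, and 3 B cell markers from 3.70 to 3.77 and from 3.74 to 3.90, near or under the 25th percentile of each array (3.95 to 4.04). Meningeal fibroblast markers, 4 in number, were all higher under TNF-/- (6.23 to 6.40, against 6.00 to 6.24). The 2 higher ones at an unadjusted limma p under 0.05 were Slc6a13 (0.33 ± 0.10, SE, limma, adjusted p = 0.313) and Lum (0.21 ± 0.06, adjusted p = 0.323). For comparison, 54.8% of all probe sets were lower under TNF-/-. Oligodendrocyte markers, 4 in number, were all lower under TNF-/-, where 40.9% of probe sets at or above the median signal were lower. Their list means did not overlap (9.68 to 9.81, against 9.84 to 10.2), in the direction of Tnfrsf21. Mag (-0.39 ± 0.09, SE, limma, adjusted p = 0.233) and Cnp (-0.32 ± 0.08, adjusted p = 0.264) did not overlap between groups, and Mbp and Mog did. Of all probe sets 6.63% did not overlap. The part of either list in the values of the members was not tested.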

How the data were processed

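Signals of 8 Affymetrix Mouse Gene 1.0 ST arrays were used as deposited, and sample titles gave the groups, TNF-/- and TNF+/+, with 4 arrays in each. The deposited table holds the authors' log2 signal of 35556 probe sets, with values from 2.83 to 14.1, from which the log2 scale follows. Per the submitters' processing notes GCOS, GCRMA and Partek were used, with no versions or roles; a genome build is not named in these sources. No 2 arrays were identical.

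Platform annotation pairs 21789 probe sets with 1 symbol, 1621 with several and 12146 with none. All 42 members matched RefSeq's GRCm38.p6 table by gene ID. The brightest probe set stands for a gene, and each member had 1; 3 family genes in RefSeq (Tnfsf12, Tnfsf13 and Tnfsfm13) have no probe set of their own and were not used. Members and lists were chosen with earlier results of these data known. Some genes of the lists are not reported here.

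All 35556 probe sets entered limma 3.58.1 (R 4.3.3), fitted by genotype with lmFit and eBayes, two-sided and with no filter, and a Benjamini-Hochberg adjusted p under 0.05 is a call. SE is limma's moderated standard error. The design text names SAM; it was rebuilt with all 70 assignments of the 8 arrays (s0 0.0357, estimated false discovery rate 4.49%) as an alternative. In a trial on simulated arrays (35556 probe sets, 100 changed by 0.5 and 100 by 1 on the log2 scale), limma found 36% of the smaller and 90% of the larger changes, and 6.67% of its calls were false. The simulated noise was independent between arrays and between probe sets, so these shares need not hold for the real arrays. Values in every array are given for Tnf, Lta, Ltb, Tnfrsf1a, Tnfrsf1b, members with an unadjusted p under 0.05 and the 3 brightest of each role group; Tnfsf14 was added after its values were seen. Alternatives were other scalings, a filter on dim probe sets, probe sets with 1 symbol only, other variance models, array weights, a block for replicate number, SAM, and leaving out arrays. Plots used matplotlib 3.10.9 in Python 3.11.15.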

Additional observations from a re-analysis of the deposited data

Results flagged for a closer look

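Each member was looked at in each genotype for 1 array far from the rest of its group, which makes 84 groups of 4 arrays; 4 groups held such an array, and chance gives about 4. In the arrays labelled TNF-/- these were Ltbr in array 1 (4.66, against 4.36 to 4.41 in the others), Tnfrsf1a in array 3 (5.75, against 5.42 to 5.45), Tnfsf10 in array 4 (4.39, against 3.94 to 4.01) and Tnfsf18 in array 3 (3.59, against 3.44 to 3.46). No array labelled TNF+/+ stood apart in this way for any of the 42 members.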

How the results depend on the processing

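Tnf kept its direction in all settings tried and its call after quantile normalization, median centring, with only 1-symbol probe sets, with another variance model and with array weights (limma, adjusted p = 0.00315 to 0.0295), and by SAM. The filter on dim probe sets is no check of Tnf, which passed it through the arrays where it is high, nor is the mean over a gene's probe sets, since each member has 1. The call was lost with the replicate number as a block (1.39, adjusted p = 0.129) and without TNF+/+ arrays 3 and 4 (1.21, adjusted p = 0.216), and with 1 array left out the difference ran from 1.29 to 1.52. Members called were 0 in those 2 settings, and 0 to 1 with 1 array left out. Over all probe sets limma called 29, 63 when only 1-symbol probe sets were tested, 0 with the replicate number as a block (4025 at an unadjusted p under 0.05), 0 without TNF+/+ arrays 3 and 4 (3566), and 1 (without TNF+/+ array 3) to 20 with 1 array left out; SAM called 53. The cause was not tested.

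Same-numbered arrays had deviations correlated by 0.067 to 0.11, and arrays of different number by -0.12 to 0.10. TNF-/- arrays 1, 2 and 4 each correlated best with the TNF+/+ array of the same number. TNF-/- array 3 correlated by 0.101 with TNF+/+ array 4 and by 0.097 with TNF+/+ array 3. The sample titles do not state that the numbers pair the arrays. The main fit therefore has no block, and the fit with a block is given beside it.

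Over 12 settings that can change a difference, 18 other named members had 216 values, of which 191 kept their sign and 25 changed it; none of these members was called in any setting. The changes were Lta with median centring (-0.015), Tnfrsf11b and Tnfrsf26 with median centring (-0.0020 and -0.0024) and array weights (-0.0053 and -0.0056), and Tnfrsf1b with quantile normalization (0.021). Without TNF+/+ arrays 3 and 4 they were Ltb (-0.032), Tnfrsf11b (-0.053), Tnfrsf13c (0.031) and Tnfrsf1a (0.082). With 1 array left out, Lta ran from -0.034 to 0.043, Tnfrsf11b from -0.034 to 0.11, Tnfrsf1a from -0.13 to 0.038, Tnfrsf1b from -0.049 to 0.023, Tnfrsf25 from -0.12 to 0.062 and Tnfrsf26 from -0.044 to 0.059. Low signal limits 37 of 42 members, which the filter on dim probe sets removes.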
